A study of Mus musculus with 12 samples.

Results

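The mRNA levels of the repressors Gfi1 and Gfi1b and of 6 corepressor genes, Kdm1a, Rcor1, Hdac1, Hdac2, Ctbp1 and Ctbp2, were followed across normal and leukemic mouse bone marrow cells. The 8 genes were taken by symbol from a table of 24107 genes, as a repressor family with its known corepressors. The rule sets no threshold on a measured value, but the set was proposed with earlier results of these data known. RNA was sequenced from 12 libraries of C57BL/6 mice in 4 groups of 3. Wild-type mice gave the control megakaryocyte-erythroid progenitors (control MEP), which give rise to platelets and red cells, and the control whole marrow, for which the labels give no selection by a reporter. The leukemic MEP and the marrow cells selected for green fluorescent protein (GFP+ marrow) had the genotype Prdm16s and came from recipient mice with leukemia. Prdm16s, leukemia and being a recipient cannot be told apart in these groups, and in the marrow comparison selection for GFP cannot either. Whether each library is a mouse of its own is not in the labels, so p-values measure only the spread between these samples, which may be technical. Values are in FPKM, fragments per kilobase of transcript and per M reads, which allows levels to be compared between genes. Differences are of log2(FPKM + 1), a scale on which low genes change less than their ratio of FPKM, and have standard errors over n = 3 libraries a group. A change was called at an adjusted p below 0.05 in limma, adjusted over 11462 genes with at least 1 FPKM in at least 3 libraries. All 8 genes passed that filter, Gfi1 without any control MEP library.

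The whole reads behind the FPKM values came to 6.72 to 9.71 M in 10 libraries, to 0.572 M in leukemic MEP replicate 3 and to 1.15 M in GFP+ marrow replicate 2. Leukemic MEP replicate 3 stood apart from its group, with a Pearson r across genes of 0.806 to replicate 1 and 0.794 to replicate 2, while those 2 libraries had an r of 0.966. Its summed level of 10 granulocyte and neutrophil markers was 94196 FPKM, against 898 and 2259 in leukemic MEP replicates 1 and 2 and 75705 to 92785 in control marrow. Its 10 erythroid markers summed to 475 FPKM, against 2204 and 2641 in replicates 1 and 2. Its granulocyte and erythroid levels were thus unlike those of the labelled cell type. Its 8 megakaryocyte markers summed to 316 FPKM, below replicates 1 and 2 (5708 and 4671) but above control MEP (9.85 to 124). Xist, the RNA of the inactive X chromosome, was at 39.2 to 57.1 FPKM in replicates 1 and 2 of both leukemic groups and at 0.0904 or below in the other 8 libraries. Prdm16 itself was at 0.363 to 0.957 FPKM in the 6 control libraries and at 6.35 to 15.3 in the 6 Prdm16s libraries.

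GFI1 and GFI1B are zinc-finger proteins that bind DNA containing AATC and shut off transcription. Their short SNAG domain recruits the histone demethylase LSD1 (encoded by Kdm1a) with its scaffold CoREST (Rcor1) and the deacetylases HDAC1 and HDAC2. In blood formation Gfi1 is known for its role in granulocytes and stem cells, Gfi1b for its role in red cells and megakaryocytes, and each factor is known to repress its own gene and that of the other. CTBP1 and CTBP2 are further corepressors, which bind short peptide motifs, one of which is in PRDM16.

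The 250 bases before the start site of Gfi1b and of Gfi1 are shown because both genes are known to be repressed through AATC sites. They are RefSeq sequences of GRCm38.p6, read 5′ to 3′ on the minus strand, with AATC and its reverse complement GATT in capitals.
Gfi1b, chr2:28621983-28622232: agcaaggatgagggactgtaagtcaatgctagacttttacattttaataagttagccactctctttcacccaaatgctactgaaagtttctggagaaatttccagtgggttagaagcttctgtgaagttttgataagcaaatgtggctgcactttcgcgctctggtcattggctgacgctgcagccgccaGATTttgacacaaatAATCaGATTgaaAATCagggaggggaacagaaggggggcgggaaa
Gfi1, chr5:107725806-107726055: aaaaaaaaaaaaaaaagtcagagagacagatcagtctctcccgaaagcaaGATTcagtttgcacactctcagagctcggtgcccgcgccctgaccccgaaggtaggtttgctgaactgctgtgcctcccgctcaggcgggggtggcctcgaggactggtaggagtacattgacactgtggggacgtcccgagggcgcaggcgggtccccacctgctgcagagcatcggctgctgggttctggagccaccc
The Gfi1b window held 4 matches, whose last bases lay 30, 37, 42 and 57 bases before the first transcribed base, so that all 4 stood close together. The window of Gfi1 held 1 match, 197 bases before the start, and the window of a further Gfi1 start at chr5:107724344-107724593 held none. Of 32851 RefSeq promoter windows of this length, searched on both strands, 69.0% held at least 1 match and 7.04% at least 4. The Gfi1b window also held 1 GATAA, a motif of GATA factors, 115 bases before the start, as 22.6% of windows did in either orientation. Among the other members with a promoter entry, Kdm1a and Ctbp1 held 1 AATC match each, Rcor1 and Hdac2 held none, and the windows of 2 Ctbp2 starts held 0 and 2. A match is a description of letters and not of binding.

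Gfi1 (chromosome 5, 107716655 to 107725805, minus strand, GRCm38.p6) was not detected in control MEP and was highest in GFP+ marrow. No read of it was counted in any of the 3 control MEP libraries, a depth at which 3 reads would equal 0.0991 to 0.129 FPKM. In leukemic MEP it was at 0.304, 0.301 and 19.1 FPKM, from 11, 8 and 37 reads. These libraries were at least 2.36-, 2.34- and 148-fold above the highest of the control MEP limits, and the high value belonged to replicate 3 alone. In control marrow Gfi1 was at 5.31, 5.55 and 6.25 FPKM, and in GFP+ marrow at 16.0, 19.1 and 34.9. The 3 GFP+ libraries all lay above the 3 control marrow libraries, and the mean was 4.09-fold higher (23.3 ± 10.2 against 5.70 ± 0.488 FPKM, SD, n = 3).

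Neither leukemic difference of Gfi1 passed the test. In MEP it was 1.70 ± 0.81 (adjusted p = 0.144, 95% interval -0.06 to 3.45), and without leukemic MEP replicate 3 it was 0.38 (adjusted p = 0.418). It was called at 3.87 with a pseudocount of 0.1 (adjusted p = 0.0286), at 4.73 by limma-voom on the recovered reads (adjusted p = 0.0340) and at 4.33 among the 8 libraries with low Xist, where replicate 3 is the lone leukemic MEP library (adjusted p = 1.79e-06). In marrow the difference was 1.78 ± 0.81 (adjusted p = 0.201, 95% interval 0.03 to 3.54). Leukemic MEP replicate 3 enters that test only through the shared estimate of the spread, and without it the same difference of 1.78 was called (adjusted p = 0.000949). It was also called when only the marrow libraries were fitted (adjusted p = 0.00584), by limma-voom (adjusted p = 0.00821) and with array weights (adjusted p = 0.00194). Among libraries with low Xist, where GFP+ marrow is replicate 3 alone, it was 2.42. The other alternatives for Gfi1 in marrow did not call it.

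Gfi1b (chromosome 2, 28609450 to 28621982, minus strand) fell in both leukemic populations. It was at 442, 509 and 463 FPKM in control MEP and at 208, 118 and 30.3 in leukemic MEP, the last from 33 reads. All leukemic MEP libraries lay below all control MEP libraries, and the lowest was again replicate 3. The mean was 3.97-fold lower (119 ± 88.7 against 471 ± 34.4 FPKM), a difference of -2.36 ± 0.51 (adjusted p = 0.00552). Without replicate 3 the fall was smaller and remained called, at -1.58 (adjusted p = 0.00103). In marrow Gfi1b was at 138, 204 and 224 FPKM in the controls and at 10.7, 13.2 and 15.5 in the GFP+ libraries. The groups were far apart, with a mean 14.4-fold lower in GFP+ marrow and a difference of -3.73 ± 0.51 (adjusted p = 0.000863). Of its exons 134 bases lie inside the noncoding gene Gm52548, whose reads may not be separated.

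The fall of Gfi1b was 1.38 ± 0.72 smaller in MEP than in marrow on the log2 scale, and this difference did not pass the test (adjusted p = 0.357). Without leukemic MEP replicate 3 it was 2.15 and was called (adjusted p = 0.00257), as it was with array weights, at 2.65 (adjusted p = 3.72e-05). Only 8 libraries had low Xist, among them all 6 controls but a single library of each leukemic group, each assumed to vary like the other groups. Among these 8 Gfi1b differed by -3.91 in MEP and -3.50 in marrow (adjusted p = 8.14e-06 and 7.53e-05). The libraries with high Xist were all leukemic, so they gave no comparison of their own.

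**Figure D1:**
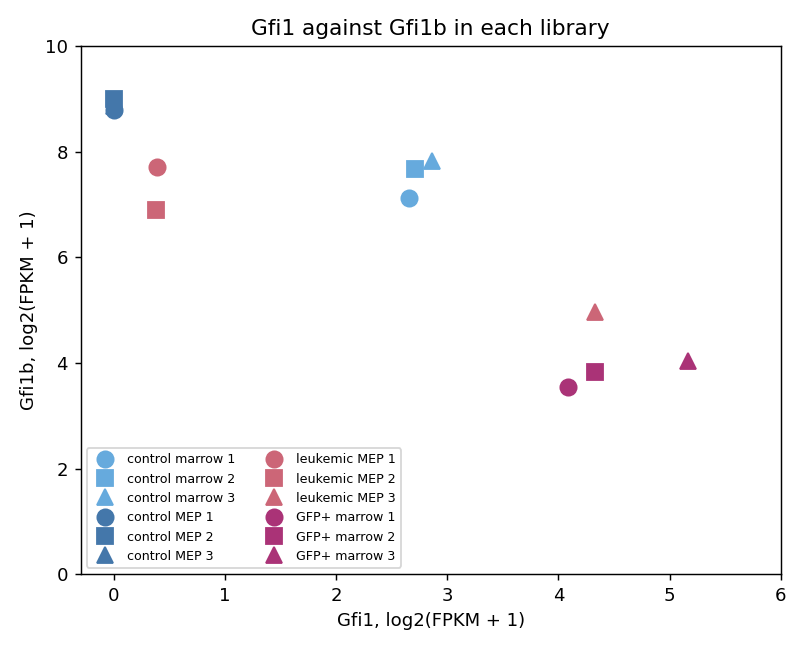
Level of Gfi1 (x axis) against Gfi1b (y axis), both as log2(FPKM + 1), in each of the 12 libraries; colours mark the 4 groups and shapes the replicate number. Control MEP lie at a Gfi1 of 0 with Gfi1b at 442 to 509 FPKM, and GFP+ marrow lies at the opposite corner with leukemic MEP replicate 3 nearest to it.

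The balance between the pair turned over in GFP+ marrow. Gfi1 made up 0% of the summed FPKM of Gfi1 and Gfi1b in control MEP and 2.65 to 3.70% in control marrow. It made up 59.9, 59.1 and 69.3% in the GFP+ marrow libraries, where it was the more abundant of the pair in every library. In leukemic MEP its share was 0.146 and 0.254% in replicates 1 and 2 and 38.6% in replicate 3. The plot of Gfi1 against Gfi1b shows this split, and over the 12 libraries their log2 levels had a Pearson r of -0.868, a description of 4 groups that share their sorting and depth.

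Markers of several blood lineages differed between the same groups. The 10 erythroid markers summed to 6673 to 7848 FPKM in control MEP and 3375 to 4534 in control marrow, but to 175 to 707 in GFP+ marrow, where 10 of 10 fell, against 6.03% of all genes. Car1 alone was at 5219 to 6032 FPKM in control MEP, most of that sum. Against control marrow 1 of the 10 was called higher in control MEP and 3 lower, and 15.0% of all genes were called. Hbb-bs was at 8.39 to 66.2 FPKM in control MEP and 1337 to 2058 in control marrow. In leukemic MEP 6 of the 10 fell and 1, Hbb-bs, rose, against 12.3% of all genes lower and 13.7% higher. The granulocyte and neutrophil markers summed to 26.9 to 398 FPKM in control MEP, with the higher leukemic MEP sums given above, and 6 of 10 rose. In marrow their sums overlapped, at 75705 to 92785 FPKM in the controls and 90121 to 128441 in the GFP+ libraries, and 0 of 10 were called in limma. The single markers went different ways. Mpo, Elane, Prtn3, Ctsg and S100a8 were higher in every GFP+ library than in every control marrow library. Ngp, Camp and Mmp8 were lower in every one, and Ltf and S100a9 overlapped. Gfi1 was itself not called there with all libraries, so the calls cannot show whether these markers moved with it. No marker of either list was at 0 throughout a group. The 8 megakaryocyte markers summed to 9.85 to 124 FPKM in control MEP and to 5708, 4671 and 316 in leukemic MEP. In leukemic MEP replicates 1 and 2, where these markers were highest, Gfi1b, a factor of that lineage, was at 208 and 118 FPKM. All 8 megakaryocyte markers rose in MEP, and in marrow 1 rose and 1 fell. The 6 mast cell and basophil markers summed to 19.0 to 27.5 FPKM in control MEP and to 315 to 742 in leukemic MEP, where 5 of 6 rose, and 2 of 6 fell in marrow. The 9 monocyte and macrophage markers summed to 867 to 901 FPKM in control marrow and to 86.0 to 180 in GFP+ marrow, where 5 of 9 fell, and 0 were called in MEP. The 9 B lymphoid markers summed to 171 to 228 FPKM in control marrow and to 80.7 to 118 in GFP+ marrow, where Pax5, Ebf1 and Rag1 were at 0 and 6 of 7 tested fell. Cd79b alone was at 60.3 to 114 FPKM in GFP+ marrow, most of those sums. In MEP 1 of those 7 rose. Of 5 tested T and NK lymphoid markers 2 fell in marrow and 1 rose in MEP. The part of cell composition in the levels of Gfi1 and Gfi1b was not tested, and in RNA from many cells, fewer cells of a type and less RNA per cell cannot be told apart.

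Kdm1a and Rcor1, the demethylase and its scaffold, did not pass the test in either population. Kdm1a (chromosome 4, 136550533 to 136602787, minus strand) was at 12.4, 16.2 and 16.0 FPKM in control MEP and at 14.8, 16.9 and 4.90 in leukemic MEP. The low value was replicate 3, with 9 reads and a 95% Poisson interval of 2.24 to 9.30 FPKM that covers counting error only. The difference was -0.41 ± 0.35 (adjusted p = 0.426, 95% interval -1.18 to 0.36), and without that library it turned to 0.10 (adjusted p = 0.790). Among libraries with low Xist, where replicate 3 stands alone for leukemic MEP, it was -1.42 and was called (adjusted p = 0.00136). In marrow Kdm1a was at 12.4, 13.2 and 12.4 FPKM in the controls and at 12.05, 9.64 and 10.7 in GFP+ marrow. The GFP+ values were all slightly lower, but the difference of -0.22 ± 0.35 did not pass the test (adjusted p = 0.759, 95% interval -0.99 to 0.55). Of 5179 exon bases of Kdm1a in the GENCODE annotation, 2721 lie inside the neighbouring gene Luzp1. That annotation may differ from the one used for counting. The strand setting of the counting is not given in the sources used here, so reads of the overlap may not be separated.

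Rcor1 (chromosome 12, 111039367 to 111115902, plus strand) was at 10.3, 9.73 and 12.1 FPKM in control MEP and at 7.49, 8.59 and 6.15 in leukemic MEP. The groups did not overlap, and the difference was -0.48 ± 0.29 (adjusted p = 0.240, 95% interval -1.11 to 0.14). It was called at -0.55 with array weights (adjusted p = 0.0144). Among libraries with low Xist, where leukemic MEP is replicate 3 alone, it was -0.71. None of the other 19 alternatives called it. In control marrow Rcor1 was at 8.90, 9.36 and 9.38 FPKM, and in GFP+ marrow it was spread from 5.72 to 14.0 around nearly the same mean (9.18 ± 4.27 against 9.22 ± 0.270). The highest of those values was replicate 2, which had 1.15 M reads, and the marrow difference was -0.09 (adjusted p = 0.897, 95% interval -0.71 to 0.54).

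The deacetylase genes Hdac1 and Hdac2 did not pass the test in either population. Hdac1 (chromosome 4, 129516104 to 129542646, minus strand) was at 44.1, 38.1 and 34.4 FPKM in control MEP and at 33.6, 37.0 and 26.3 in leukemic MEP, with overlapping groups and a difference of -0.26 ± 0.19 (adjusted p = 0.330, 95% interval -0.68 to 0.15). In marrow it was at 33.1, 34.3 and 29.3 FPKM in the controls and at 41.5, 40.9 and 38.4 in GFP+ marrow. Here all GFP+ libraries were higher, by 0.31 ± 0.19 (adjusted p = 0.347, 95% interval -0.10 to 0.73). Hdac1 has a processed pseudogene on chromosome 17 (78491565 to 78493541) that holds 31.7% of the 50-base words of its transcripts, so its level is uncertain to the extent that reads were split between them. Hdac2 (chromosome 10, 36974297 to 37001889, plus strand) was at 13.4, 24.5 and 27.1 FPKM in control MEP and at 18.9, 24.2 and 23.0 in leukemic MEP. The groups overlapped, with a difference of 0.07 ± 0.28 (adjusted p = 0.877, 95% interval -0.54 to 0.69). In marrow it was at 15.8, 16.1 and 15.2 FPKM in the controls and at 16.8, 27.8 and 27.9 in GFP+ marrow. The GFP+ libraries lay above the controls, by 0.56 ± 0.28 (adjusted p = 0.257, 95% interval -0.06 to 1.17).

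Of Ctbp1 and Ctbp2, which encode closely related proteins, Ctbp2 was called in MEP and Ctbp1 was not, and the difference between the genes was not tested. Ctbp2 (chromosome 7, 132986998 to 133124009, minus strand) rose in leukemic MEP, from 1.06, 1.35 and 1.05 FPKM in control MEP to 4.47, 4.46 and 10.5. Each leukemic library was above each control, with 36 to 48 reads behind the control values and 30 behind the highest. The mean was 5.62-fold higher (6.48 ± 3.49 against 1.15 ± 0.171 FPKM), a difference of 1.70 ± 0.33 (adjusted p = 0.00268). Without leukemic MEP replicate 3 it was 1.35 and remained called (adjusted p = 0.00329). Of its exons 265 bases lie inside the gene Gm35364. In marrow Ctbp2 was at 3.25, 3.55 and 3.72 FPKM in the controls and at 4.33, 3.88 and 6.96 in GFP+ marrow. Those groups did not overlap either, but the difference of 0.39 ± 0.33 did not pass the test (adjusted p = 0.507, 95% interval -0.32 to 1.11). It was called at 0.82 among libraries with low Xist, where GFP+ marrow replicate 3 stands alone (adjusted p = 0.0353). The rise was 1.31 ± 0.46 larger in MEP than in marrow, which did not pass the test after adjustment (adjusted p = 0.157, 95% interval 0.30 to 2.32). It was called at 1.17 with array weights (adjusted p = 0.00337). Among libraries with low Xist, with a single library in each leukemic group, it was 1.60. No other of the 20 alternatives called it.

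Ctbp1 (chromosome 5, 33247723 to 33275004, minus strand) was the more abundant of the CtBP genes in every library. It was at 25.5, 36.8 and 34.2 FPKM in control MEP and at 32.1, 27.7 and 26.9 in leukemic MEP, with overlapping groups and a difference of -0.14 ± 0.30 (adjusted p = 0.776, 95% interval -0.79 to 0.52). In marrow it was at 17.4, 25.5 and 26.1 FPKM in the controls and at 18.4, 22.0 and 9.09 in GFP+ marrow. The groups overlapped, and the difference of -0.52 ± 0.30 did not pass the test (adjusted p = 0.328, 95% interval -1.17 to 0.14). With low Xist alone, where the lowest of these libraries stands for GFP+ marrow, it was -1.23 and was called (adjusted p = 0.0140). The share of Ctbp2 in the summed FPKM of the CtBP pair was 2.99 to 3.98% in control MEP and 12.2, 13.9 and 28.1% in leukemic MEP. It was 12.2 to 15.8% in control marrow, close to leukemic MEP replicates 1 and 2, and 19.1, 15.0 and 43.4% in GFP+ marrow.

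**Figure D2:**
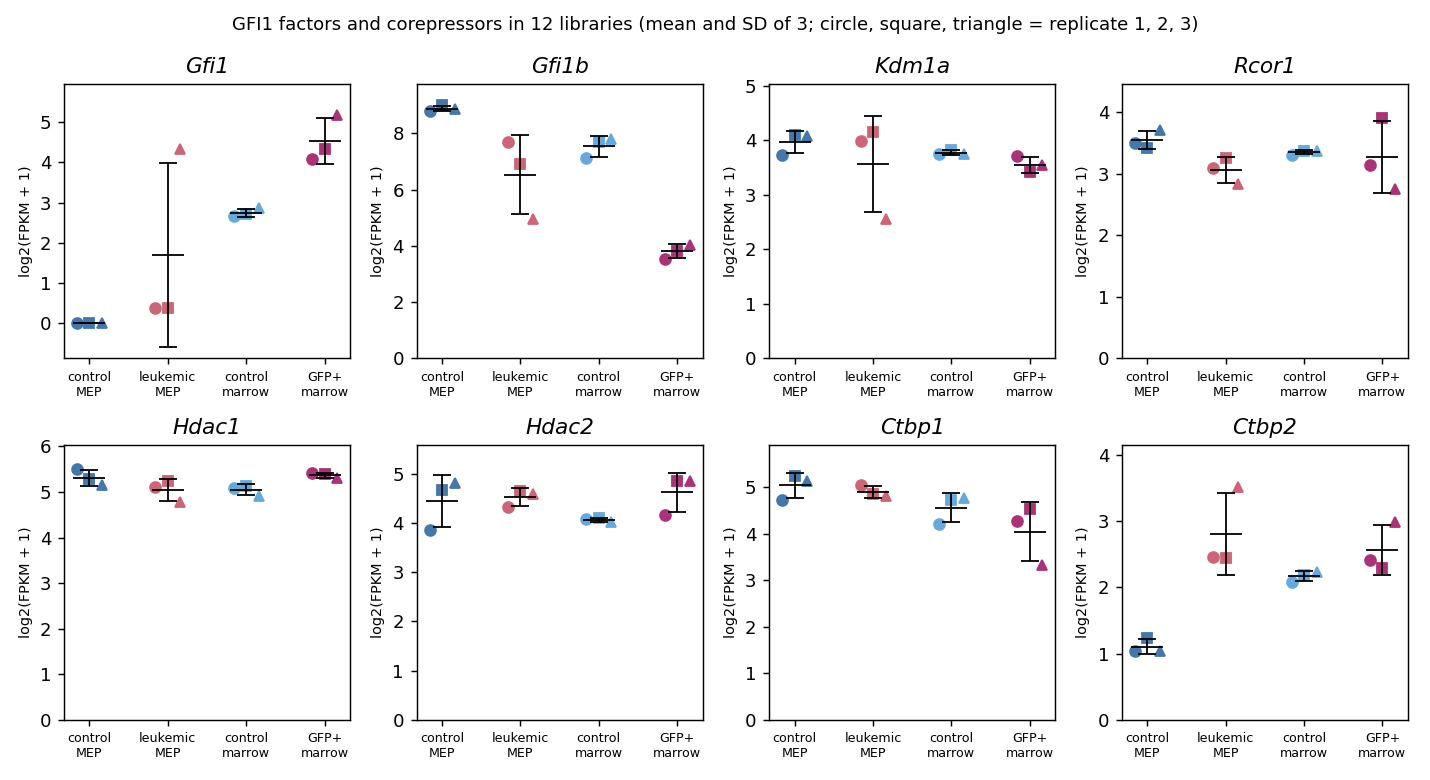
Level of each of the 8 genes, as log2(FPKM + 1), in the 4 groups; points are libraries, with a circle, square or triangle for replicate 1, 2 or 3, and bars are the mean and SD of 3. Gfi1b falls from left to right within each pair of groups and Ctbp2 rises in leukemic MEP, while Kdm1a, Rcor1, Hdac1, Hdac2 and Ctbp1 stay within a narrow range except for single libraries.

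**Figure D3:**
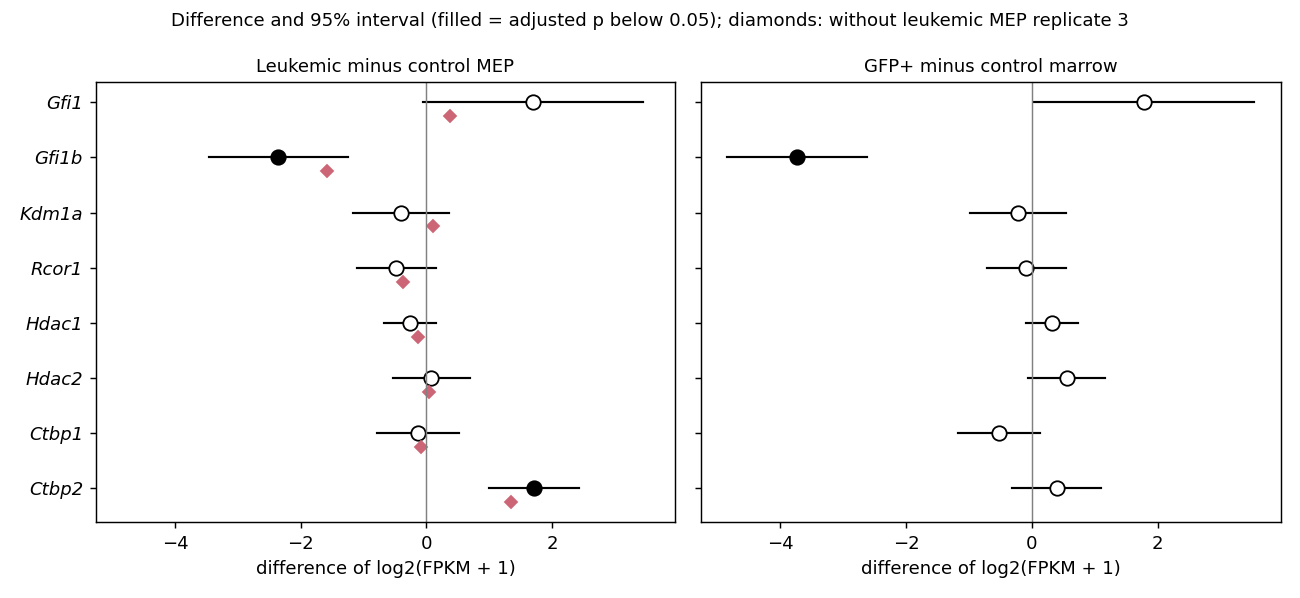
Differences of log2(FPKM + 1) between leukemic and control libraries for the 8 genes, in MEP (left) and marrow (right), with 95% intervals; filled circles have an adjusted p below 0.05, and diamonds give the MEP difference without leukemic MEP replicate 3. Gfi1b lies below 0 in both panels, at -2.36 and -3.73, and Ctbp2 above 0 in MEP, at 1.70.

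Between leukemic and control MEP 2 of the 8 genes were called, Gfi1b and Ctbp2, while 26.0% of all tested genes were called, so that the count was near the background. The groups did not overlap for 4 of the 8 (Gfi1, Gfi1b, Rcor1 and Ctbp2), against 40.8% of all genes. In the marrow comparison 1 of the 8 was called, Gfi1b, against 9.05% of all genes, again near the background. The groups did not overlap there for 6 of the 8, all except Rcor1 and Ctbp1, against 37.2%. For the difference between the MEP and marrow changes none of the 8 was called in limma, against 4.89% of all genes. Only Ctbp2, 1 of the 8, had an unadjusted limma p under 0.05 there, and limma-voom on the recovered reads also called 0. Among libraries with low Xist, with 1 library in each leukemic group, this difference was 1.90 for Gfi1 and -1.19 for Kdm1a. That fit holds no spread between leukemic samples, and Kdm1a there rests on 9 reads in leukemic MEP replicate 3. The plot of differences with intervals shows that the 5 members other than Gfi1, Gfi1b and Ctbp2 had intervals across 0 in both populations.

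The normal populations differed in Gfi1 and Ctbp2. Control MEP were lower than control marrow in Gfi1, with a difference of -2.74 ± 0.81 (adjusted p = 0.0383), where the marrow mean was 44.2 times the highest control MEP level of 3 reads. They were also lower in Ctbp2, with a difference of -1.07 ± 0.33 (adjusted p = 0.0469). Both calls were close to the threshold and were lost when any 1 of the 6 control libraries or GFP+ marrow replicate 1 or 2 was left out. Across those 8 fits the adjusted p was 0.0504 to 0.109 for Gfi1 and 0.0531 to 0.140 for Ctbp2. Both were also lost when no filter on low values was used (adjusted p = 0.0803 and 0.0733) or under quantile normalization (adjusted p = 0.0532 and 0.268). Gfi1b was higher in every control MEP library than in every control marrow library, by 1.34 ± 0.51 (adjusted p = 0.105), and this was called without leukemic MEP replicate 3 (adjusted p = 0.00126) or 1 (adjusted p = 0.0426), by limma-voom, with array weights, with only the control groups and with low Xist (adjusted p 0.000131 to 0.00757). Thus 2 of the 8 were called, against 15.0% of all genes. Array weights also called Hdac2 (0.66, adjusted p = 0.00532) and Ctbp1 (0.49, adjusted p = 0.0174), both higher in control MEP.

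Between the leukemic populations, Gfi1b was higher in leukemic MEP than in GFP+ marrow, by 2.72 ± 0.51 (adjusted p = 0.0198), with no overlap. It was the only one of the 8 called, against 3.05% of all genes. The call was lost without leukemic MEP replicate 1 or 2 or GFP+ marrow replicate 1 or 2 (adjusted p 0.0611 to 0.0720) and when only the leukemic groups were fitted (adjusted p = 0.289). Among libraries with low Xist, with 1 library in each leukemic group, the difference was 0.93. Gfi1 differed by -2.83 ± 0.81 (adjusted p = 0.0800), with 1 leukemic MEP library, replicate 3, inside the range of GFP+ marrow. Without that library the difference was -4.15 and was called (adjusted p = 1.87e-06). It was also called by limma-voom, at -5.49 (adjusted p = 0.000255), and with array weights, at -3.74 (adjusted p = 5.45e-07). Ctbp1 differed by 0.86 ± 0.30 (adjusted p = 0.146) and was called with equal FPKM totals, by limma-voom, with array weights and among libraries with low Xist (0.74 to 1.47, adjusted p 0.0114 to 0.0353). With low Xist alone, again 1 library against 1, Kdm1a differed by -0.98.

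By mean level the order for Gfi1 was GFP+ marrow, leukemic MEP, control marrow and control MEP. Only control MEP, at the end of that order, did not overlap with its neighbour. Leukemic MEP stood above control marrow through replicate 3 alone, since replicates 1 and 2 (0.304 and 0.301 FPKM) lay below every control marrow library. For Gfi1b the order was control MEP, control marrow, leukemic MEP and GFP+ marrow, and only control marrow and leukemic MEP overlapped. For Ctbp2 it was leukemic MEP, GFP+ marrow, control marrow and control MEP, and only the leukemic groups overlapped. Leukemic MEP led through replicate 3 (10.5 FPKM), since replicates 1 and 2 (4.47 and 4.46) lay below the GFP+ marrow mean of 5.06. All neighbours overlapped for Kdm1a, Hdac1 and Hdac2. For Rcor1 control MEP lay above control marrow, the next in order, without overlap, and for Ctbp1 leukemic MEP lay above control marrow.

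Most partners of these corepressors were measured at levels that did not pass the test. Of 8 tested LSD1-CoREST partners 1 rose and none fell in leukemic MEP, and none was called in marrow, with median differences of 0.18 and -0.08 against 0.02 and -0.05 over all genes. Over all genes 13.7% rose and 12.3% fell in MEP and 9.05% were called in marrow, so 1 of 8 is near that background. The one was Phf21a, which encodes the histone-binding subunit BHC80, at 0.730, 0.603 and 0.606 FPKM in control MEP and at 4.76, 4.92 and 7.99 in leukemic MEP (difference 2.03 ± 0.30, adjusted p = 0.000497). Like Ctbp2 it was higher in each leukemic library, and it was at 2.51 ± 0.586 FPKM in control marrow. Of 8 other histone deacetylases tested, Hdac5 rose and Hdac7 fell in leukemic MEP, and the medians were 0.19 in MEP and -0.12 in marrow. These 2 of 8 are near the 26.0% of all genes called in MEP. Hdac5, a class IIa deacetylase, was at 0.468, 0.557 and 0.304 FPKM in control MEP and at 11.5, 4.99 and 13.9 in leukemic MEP (difference 2.85 ± 0.39, adjusted p = 0.000261). Hdac5 and Phf21a passed the filter of 1 FPKM without any control MEP library, so only through groups where they were higher. Hdac5 lay in control marrow at 4.44 ± 0.579 FPKM, so that control MEP were the low group for Hdac5 as for Ctbp2 and Phf21a. Hdac7, of the same class, went from 16.8 ± 2.30 to 7.72 ± 2.66 FPKM (difference -1.08 ± 0.34, adjusted p = 0.0368). That call was lost in 8 of 21 alternatives, among them any control MEP library or leukemic MEP replicate 2 left out. In marrow Hdac11 alone fell, from 1.62 ± 0.638 to 0.0614 ± 0.106 FPKM (difference -1.28 ± 0.28, adjusted p = 0.0134). The Hdac11 call was lost in 3 of 20 alternatives, among them control marrow replicate 2 or 3 left out.

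Of 22 subunits of the NuRD, Sin3 and NCoR repressor complexes, 1 fell in leukemic MEP and none was called in marrow, with medians of -0.04 and -0.08, against 26.0% and 9.05% of all genes called. It was Rbbp7, a histone-binding subunit shared by several of these complexes, which went from 298 ± 21.1 to 192 ± 45.3 FPKM in MEP (difference -0.66 ± 0.20, adjusted p = 0.0281). The call was lost in 7 of 21 alternatives, among them any control MEP library or leukemic MEP replicate 1 left out. Of 11 tested factors and partners that bind CtBP proteins, Prdm16 rose and Ikzf1 and Klf3 fell in leukemic MEP, and Prdm16 alone was called in marrow, with medians of 0.12 and -0.18. Prdm16 is the gene of Prdm16s and passed the filter through the Prdm16s libraries alone, so its calls were fixed by the design. Apart from Prdm16 the calls in MEP were the 2 falls, against 12.3% of all genes lower. In marrow there were none, against 9.05% of all genes called. Prdm16 differed by 2.98 ± 0.33 in MEP (adjusted p = 5.39e-05) and 2.46 ± 0.33 in marrow (adjusted p = 0.000683). Its reads do not separate Prdm16s from the endogenous gene. Ikzf1, the lymphoid regulator IKAROS, differed by -1.21 ± 0.33 (adjusted p = 0.0191). Its call was lost in 5 of 21 alternatives, among them control MEP replicate 1 or leukemic MEP replicate 1 or 2 left out. Klf3, a repressor of erythroid genes, differed by -0.86 ± 0.28 (adjusted p = 0.0414), a call lost in 13 of 21 alternative fits. These were all 3 control MEP libraries, all 3 control marrow libraries, and leukemic MEP replicates 1 and 2, each left out, and 5 other settings. None of 6 other SNAG-domain factors, among them Snai1 and Insm1, passed the filter on low values.

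**Figure D4:**
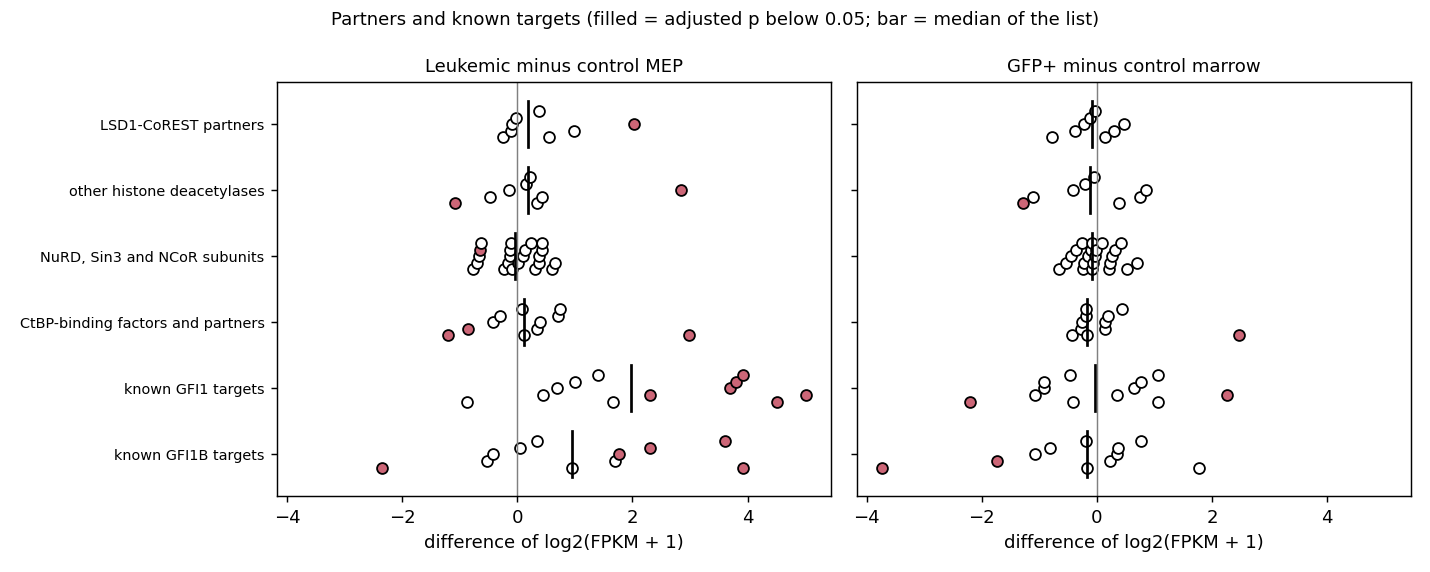
Differences of log2(FPKM + 1) for corepressor partners and for genes known as targets of GFI1 or GFI1B, in MEP (left) and marrow (right); each circle is a gene, filled circles have an adjusted p below 0.05 and the bar is the median of the list. In MEP the GFI1 targets have a median of 1.98 and the NuRD, Sin3 and NCoR subunits one of -0.04.

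Genes known as targets of GFI1 were higher in leukemic MEP for 6 of 12 tested members and lower for none, with a median difference of 1.98 against 0.02 over all genes, while 13.7% of all genes rose. In marrow 1 rose and 1 fell, against 3.02% and 6.03% of all genes, and the median was -0.03 against -0.05 over all genes. Without leukemic MEP replicate 3 the count was 7 higher in MEP, and 3 higher and 2 lower in marrow. Elane, 1 of the 6, is also among the granulocyte markers given above, and the part of such cells in these rises was not tested. Spi1, which encodes the myeloid factor PU.1, was at 3.69, 5.36 and 2.11 FPKM in control MEP and at 83.3, 42.6 and 298 in leukemic MEP (difference 4.51 ± 0.52, adjusted p = 7.93e-05). It was also high in control marrow (181 ± 14.1 FPKM), as were the granulocyte markers. Id1, an inhibitor of basic helix-loop-helix factors, was at 0.115, 0 and 0.150 FPKM in control MEP and at 6.15, 10.9 and 32.3 in leukemic MEP (difference 3.70 ± 0.44, adjusted p = 9.4e-05). Id1 passed the filter on low values without any control MEP library. It rose in marrow as well, from 9.40 ± 2.24 to 48.0 ± 3.85 FPKM (difference 2.26 ± 0.44, adjusted p = 0.00712). Without leukemic MEP replicate 3 the MEP differences were 3.74 for Spi1 and 3.08 for Id1, both still called (adjusted p = 3.93e-06 and 9.47e-06). The fall in marrow was Hoxa9, a homeobox gene of immature myeloid cells, from 10.9 ± 0.468 to 2.12 ± 2.12 FPKM (difference -2.21 ± 0.57, adjusted p = 0.0312). That call was lost in 8 of 21 alternatives, among them control MEP replicate 3, any control marrow library or GFP+ marrow replicate 1 or 3 left out. In normal cells 8 of the 12 were lower in control MEP than in control marrow and none was higher, against 12.3% of all genes lower.

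Of 11 known GFI1B targets, which include Gfi1 and Gfi1b themselves, 4 rose and 1 fell in leukemic MEP, the fall being Gfi1b, with a median of 0.95, against 13.7% of all genes higher and 12.3% lower. Rgs18, a signalling regulator of platelets, was at 29.0, 28.2 and 23.9 FPKM in control MEP and at 599, 793 and 81.1 in leukemic MEP (difference 3.60 ± 0.64, adjusted p = 0.00163). Unlike Spi1 it was lowest in leukemic MEP replicate 3, and without that library its difference was 4.63 (adjusted p = 5.3e-07). Cdkn1a, the cell cycle inhibitor p21, is in both target lists and was at 0.868, 3.44 and 1.82 FPKM in control MEP and at 22.0, 10.4 and 9.78 in leukemic MEP (difference 2.31 ± 0.38, adjusted p = 0.000914). Meis1 is in both lists too and rose in leukemic MEP (difference 3.92 ± 0.76, adjusted p = 0.00276). The counts of the lists thus share these genes and are not independent. In marrow none of the 11 rose and 2 fell, Gfi1b and Tgfbr3, with a median of -0.16, against 3.02% of all genes higher and 6.03% lower. Without leukemic MEP replicate 3 the counts were 4 and 2 in MEP and 2 and 3 in marrow. Tgfbr3, a coreceptor for TGF-beta, went from 4.01 ± 0.701 to 0.563 ± 0.495 FPKM (difference -1.73 ± 0.49, adjusted p = 0.0474). Its call was lost in 12 of 21 alternatives, among them any control library or any GFP+ marrow library left out.

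The genes whose log2 levels ran most like Gfi1 over the 12 libraries were Ceacam10 (Pearson r = 0.996), B4galt6 (0.992), C1rl (0.991) and Hpcal1 (0.990). Ceacam10 was at 0, 0 and 0.133 FPKM across control MEP, 0.514, 0.816 and 63.8 in leukemic MEP, 18.1 ± 3.59 across control marrow and 96.6 ± 43.2 across GFP+ marrow. The same split of leukemic MEP replicate 3 from its group is seen in it as in Gfi1. Most like Gfi1b were Stx2 (0.980), Slc14a1 (0.978), Tspan33 (0.977) and Slc43a1 (0.977). Slc14a1, a urea transporter of red cells, was at 69.3 ± 9.89 FPKM in control MEP, 19.1 ± 10.9 in leukemic MEP, 34.6 ± 4.18 across control marrow and 5.50 ± 2.61 across GFP+ marrow. These correlations are descriptions over libraries that fall into 4 groups, and no test was made of them.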

How the data were processed

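The deposited FPKM values were computed by the authors. Per the submitters' processing notes the tools were CASAVA, bcl2fastq, STAR 2.5.3a and DESeq2 1.18.1 with the build mm10; for the read counter, gene annotation and strand setting, no tool or setting is given in the sources. By the labels' protocols, sorted cells gave Smart-seq2 cDNA and Nextera XT libraries. Every value of the 16728 genes above 0 came out as whole reads (tolerance 0.02 reads), which gave the depths, 0.572 to 9.71 M reads. The denominators recovered from the values followed size factors of the median-of-ratios kind, so FPKM sums differ between libraries. Tests used limma 3.58.1 (R 4.3.3), with a trend, on log2(FPKM + 1), 2-sided, 4 groups in 1 fit with 8 residual degrees of freedom, and Benjamini-Hochberg adjustment over 11462 genes. With 3 libraries against 3 the smallest exact permutation p is 0.1. Scripts were tested on simulated data, whose spread may differ from that of these libraries. There limma called 84% of 4-fold and 8% of 2-fold changes in MEP, and 82% and 7% in marrow. A gene that was not called may thus have changed by 2-fold. Figures and tables used Python 3.11.15, numpy 2.4.6, pandas 2.3.3, scipy 1.17.1 and matplotlib 3.10.9.

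The 8 genes and all gene lists were chosen with earlier results of these data known. From each list of partners or targets, up to 2 called rises and 2 called falls with the smallest p were named in the MEP and marrow comparisons. For likeness, the 4 genes with the highest Pearson r were named, among tested genes with a mean of at least 10 FPKM in their highest group, receptor segments, ribosomal pseudogenes and unnamed genes left out. Positions and 250-base promoter windows were taken from RefSeq on GRCm38.p6, with a promoter entry for 7 of the 8 genes. No 50-base word is shared within the Gfi1, Hdac or Ctbp pairs. Alternatives were another pseudocount, no filter, equal FPKM totals, quantile normalization, only the groups compared, limma-voom on recovered reads, array weights, a replicate block, only libraries with low Xist, and each library left out.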

Additional observations from a re-analysis of the deposited data

Results flagged for a closer look

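Among the partners and targets, 4 genes had a change in MEP that differed from their change in marrow by the test of the difference itself (limma), and they were chosen after their values were seen. For Hdac5, a class IIa deacetylase, the change in MEP minus that in marrow was 2.09 ± 0.55 on the log2 scale (adjusted p = 0.0481), and the call was lost in 11 of 20 alternatives, among them each control library, leukemic MEP replicate 1 and GFP+ marrow replicates 1 and 2 left out. For Spi1 (PU.1) it was 3.45 ± 0.74 (adjusted p = 0.0199), lost without control MEP replicate 1 or 3 or any control marrow library. For Meis1, a homeobox gene of immature blood cells, it was 4.99 ± 1.07 (adjusted p = 0.0202), lost without the same 5 libraries. Meis1 was at 2.27, 4.58 and 1.23 FPKM across control MEP, 111, 121 and 9.36 in leukemic MEP, 20.7 ± 0.991 in control marrow and 10.1 ± 5.46 in GFP+ marrow. For Bcl2l1, the survival gene of BCL-XL, it was 2.58 ± 0.51 (adjusted p = 0.0133), lost in 1 of 20 alternatives. Bcl2l1 was at 2.42 ± 0.292 FPKM across control MEP, 11.8 ± 6.34 across leukemic MEP, 12.3 ± 1.28 in control marrow and 6.61 ± 1.46 in GFP+ marrow.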

How the results depend on the processing

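The falls of Gfi1b in MEP and in marrow were called under all 21 alternatives, and the rise of Ctbp2 in leukemic MEP likewise. Of the 8 genes, 2 were called in MEP under each of the 12 fits without 1 library, 1 to 2 in marrow, 0 to 1 for the difference of changes, 0 to 3 between the control groups and 0 to 2 between the leukemic groups. Over all genes those fits called 1916 to 3385, 388 to 2126, 213 to 1075, 944 to 2780 and 46 to 1760. Counts that moved by over 1.5 times are given next, and the cause was not tested. Between the leukemic groups 350 genes were called, against 225 with a pseudocount of 0.1, 205 with no filter, 638 with equal FPKM totals (2 of the 8), 194 under quantile normalization and 0 with only the groups compared (0 of the 8). With only the groups compared, marrow had 1775 genes (2 of the 8) and the control groups 3437. The control groups had 0 of the 8 with no filter and under quantile normalization. Limma-voom called 1907 genes in marrow (2 of the 8), 893 for the difference, 2731 between controls and 1780 between leukemic groups (3 of the 8). Array weights called 6151 genes in MEP, 3453 in marrow (2 of the 8), 2966 for the difference (2), 5511 between controls (5) and 3285 between leukemic groups (3). The 8 libraries with low Xist, with 1 library in each leukemic group, called 5614 genes in MEP (5 of the 8), 3627 in marrow (4), 3760 for the difference (3), 3591 between controls and 2616 between leukemic groups (2). Signs turned for these differences, none of them called with all libraries and the settings of the report, and the cause was not tested. For the difference of changes, Gfi1 was 1.93 with a pseudocount of 0.1, 0.19 with equal totals, 2.70 in limma-voom and 1.90 with low Xist, and ran from -1.40 to 0.57 with each library left out. There, Kdm1a was 0.052 with equal totals, 0.20 in limma-voom and 0.071 with array weights, and ran from -0.48 to 0.32. Gfi1b was -0.42 with low Xist, and Prdm16 was -0.34 under quantile normalization, and 0.69 between the controls. In MEP, Kdm1a was 0.0083 in limma-voom and ran from -0.70 to 0.10, and Hdac2 was -0.36 with array weights and ran from -0.23 to 0.26. In marrow, Rcor1 ran from -0.40 to 0.17. Between the leukemic groups, Rcor1 was 0.18, Hdac1 0.11 and Hdac2 0.32 with equal totals, Rcor1 0.14 and Ctbp2 -0.20 in limma-voom, and Kdm1a -0.98 and Rcor1 0.089 with low Xist. Their ranges with each library left out were -0.28 to 0.52 for Kdm1a, -0.46 to 0.11 for Rcor1, -0.33 to 0.017 for Hdac2 and -0.11 to 0.46 for Ctbp2. Equal totals moved the median of all genes to -0.25 in marrow, 0.25 for the difference, 0.18 between controls and 0.36 between leukemic groups. Whether replicate numbers pair the samples was not settled. Same-numbered samples of different groups had correlations of deviations of -0.269 to 0.497, over 0.1 in 5 of 18 pairs. Different numbers gave -0.453 to 0.251. Between MEP and marrow of the same condition, same-numbered samples gave 0.497, 0.285 and 0.0734 in controls and 0.0862, 0.215 and 0.149 in leukemic groups. Different numbers there ran from -0.453 to 0.228 in controls and from -0.168 to 0.0607 in leukemic groups. The main tests used no pairing. With the replicate block the calls were 2830, 932, 490, 1607 and 287 genes in the 5 comparisons, with 2, 1, 0, 2 and 1 of the 8, and no call among the 8 changed. That block ties the same number across all groups, so it does not test a pairing of MEP with marrow within a condition. Depth limits leukemic MEP 3 most, where Kdm1a rests on 9 reads and Rcor1 on 10.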
